A study of Mus musculus with 12 samples.

Results

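The genes described here are 6 subunits of the GABA-A receptor, *Gabra2*, *Gabra3*, *Gabra4*, *Gabra5*, *Gabrb1* and *Gabrb2*, and the chloride transporter *Slc12a5*. They were taken by symbol, as 7 of the 24480 genes in the count tables of the *Sox2* and *Nr2f1* lines, and all 7 passed the filter on low counts in both lines. RNA-seq was performed on the dorsal lateral geniculate nucleus (dLGN), the visual relay nucleus of the thalamus, on postnatal day 0 (P0), with 12 libraries in 4 groups of 3, each library being a pool of 3 mice. Mutants were Sox2flox/flox;Ror-alphaCre or Nr2f1 flox/flox;Ror-alphaCre. Controls of the *Sox2* line were Sox2flox/flox or Sox2flox/+ animals with no Cre, whereas *Nr2f1* controls are labelled Nr2f1 flox/flox;Ror-alphaCre and, on the same label, no Cre. The study's methods describe the controls of both lines as littermates lacking Cre, those of the *Nr2f1* line being Nr2f1 flox/flox or Nr2f1 flox/+. That description was followed. Cre was driven from the *Rora* locus, which is active in postmitotic cells of the sensory thalamus. Because controls lacked the Cre allele, deletion of the gene and presence of the allele cannot be told apart in either line.

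The GABA-A receptor is a chloride channel opened by the transmitter GABA, and each receptor is assembled from several subunits, most often of the alpha, beta and gamma families. The alpha subunit sets much of the affinity for GABA and the place of the receptor on the cell. Receptors with the alpha-4 subunit are known in the mature thalamus as extrasynaptic receptors that carry a tonic current, while alpha-2, alpha-3 and alpha-5 are prominent in the immature brain. *Slc12a5* encodes KCC2, the potassium-chloride cotransporter of neurons, which lowers intracellular chloride and so makes GABA hyperpolarizing as neurons mature. *Slc12a2* encodes NKCC1, which brings chloride into the cell.

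Among the 7 genes, *Gabra4* was the one called in *Sox2* mutants, where it was 1.73 times the control level. *Slc12a5* was at 76.5% of the control level in *Sox2* mutants, with no overlap between the groups, but its FDR of 0.0137 (edgeR) did not reach the threshold of 0.01 used throughout. In *Nr2f1* mutants none of the 7 was called. *Gabra5* was 20.6% higher in *Nr2f1* mutants with an edgeR FDR of 0.0524.

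Promoter sequences of *Gabra4* and *Slc12a5* are shown because these were the members with the largest log2 changes in size, a choice made after their values were seen. Windows of 300 bases, from 250 before to 50 after each RefSeq transcription start (GRCm38.p6), were read for all 7 genes, 12 windows in all, and searched on both strands for CATTGTT and CTTTGTT, letters that SOX proteins can bind, and for AGGTCA, letters that many nuclear receptors can bind. A single match was found, CATTGTT in the window of *Gabra4*, beginning 1 base before the start on the strand of the gene (capitals). Of 32851 windows of this length in the mouse genome, 3.78% held CATTGTT, 5.85% held CTTTGTT, 9.36% held either and 16.3% held AGGTCA. *Slc12a5* has a second annotated start, whose window (first 280 bases at chr2:164967738-164968017, plus strand) held no match and is not printed. The first 280 bases are printed, for *Gabra4* from chr5:71658279-71658558, minus strand, and for *Slc12a5* from chr2:164960596-164960875, plus strand.
Gabra4: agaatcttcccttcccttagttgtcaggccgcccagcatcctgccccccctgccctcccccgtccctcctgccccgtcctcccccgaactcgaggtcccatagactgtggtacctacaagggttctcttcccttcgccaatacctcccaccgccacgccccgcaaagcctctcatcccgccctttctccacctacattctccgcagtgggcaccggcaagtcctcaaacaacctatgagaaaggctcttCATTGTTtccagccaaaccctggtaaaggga
Slc12a5: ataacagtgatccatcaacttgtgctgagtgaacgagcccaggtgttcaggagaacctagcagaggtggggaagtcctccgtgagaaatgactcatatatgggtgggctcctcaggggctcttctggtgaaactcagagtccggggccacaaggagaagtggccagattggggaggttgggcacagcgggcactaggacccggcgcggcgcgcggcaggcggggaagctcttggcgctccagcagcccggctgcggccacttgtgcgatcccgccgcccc

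*Gabra4* and *Gabrb1* are neighbours that begin head to head on chromosome 5. In the RefSeq annotation of GRCm38.p6, *Gabra4* lies at chr5:71569734-71658308 on the minus strand and *Gabrb1* at chr5:71657921-72149572 on the plus strand, so that they share 388 bp. Also in this cluster, *Gabra2* (chr5:70958392-71095849) and *Gabrg1* (chr5:70751047-70842617) lie on the minus strand. Whether counting used the strand is not given in the sources used here, so reads from the shared stretch cannot be assigned to *Gabra4* or *Gabrb1* with certainty. *Gabra5* lies at chr7:57407669-57591016 on the minus strand. *Gabrb2* lies at chr11:42419515-42632591, *Gabra3* at chrX:72432676-72656919 and *Slc12a5* at chr2:164960846-164999731.

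Levels of different genes were compared in CPM (counts scaled to a common library size by TMM) per kb of the longest transcript, over the 6 control libraries of both lines, each line being scaled on its own. *Slc12a5* was highest at 67.8 ± 4.89 CPM per kb (SD, n = 6), followed by *Gabra3* at 19.97 ± 2.50, *Gabrb2* at 17.7 ± 2.56, *Gabra5* at 12.4 ± 1.60, *Gabra2* at 10.2 ± 1.68, *Gabra4* at 2.60 ± 0.257 and *Gabrb1* at 0.569 ± 0.0672. The ranges of *Gabra3* and *Gabrb2* overlapped, as did those of *Gabrb2* and *Gabra5* and those of *Gabra5* and *Gabra2* between libraries. Within each of the 6 control libraries, though, the order was the same, with *Gabra3* at 1.07 to 1.19 times *Gabrb2*, *Gabrb2* at 1.35 to 1.60 times *Gabra5* and *Gabra5* at 1.01 to 1.46 times *Gabra2*. *Slc12a5* stood above *Gabra3*, *Gabra4* below *Gabra2* and *Gabrb1* below *Gabra4* without overlap. Dividing by the mean transcript length instead left the order of the 7 means as it was, with *Gabra3* above *Gabrb2* in 5 of the 6 libraries. *Gabrd*, whose product joins alpha-4 in extrasynaptic receptors, was at 0.0440 CPM per kb and was not tested. *Gabra6* was at 0.00294, and *Gabrp* and *Gabrr3* had no counts in any control library.

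**Figure D1:**
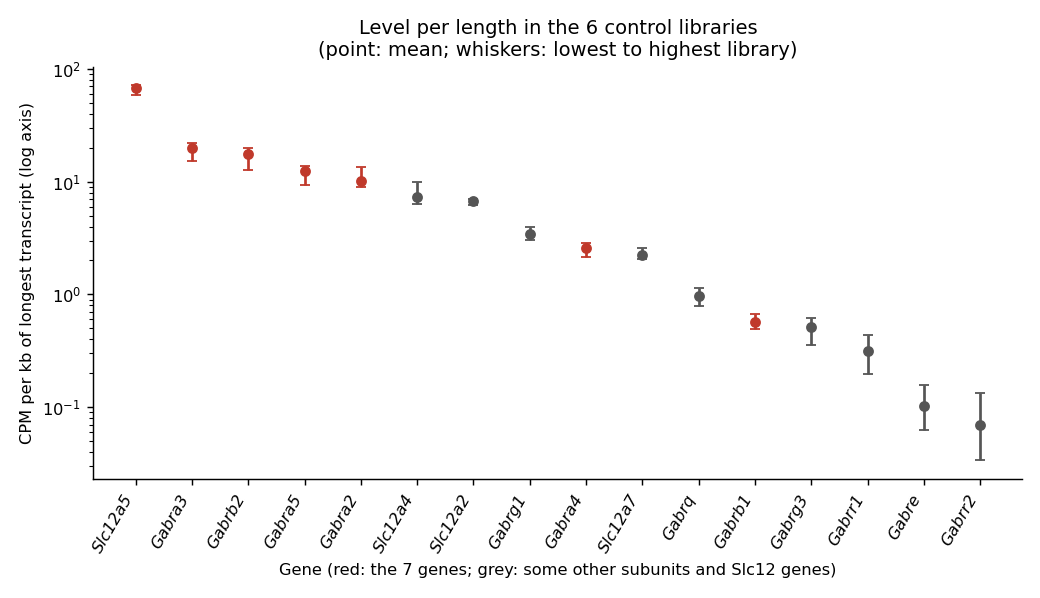
Mean level per transcript length of the 7 genes (red) and of some other GABA-A subunits and Slc12 transporters (grey) in 6 control libraries, in CPM per kb on a log axis, with whiskers from the lowest to the highest library. *Slc12a5* stood highest at 67.8, and *Gabra4* (2.60) and *Gabrb1* (0.569) were the lowest of the 7.

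In each line the targeted gene was first examined. *Sox2* had 361, 363 and 382 CPM in *Sox2* controls and 116, 150.4 and 152 CPM in *Sox2* mutants, and *Nr2f1* had 311, 370.4 and 380.1 CPM in *Nr2f1* controls and 105, 150.6 and 101 CPM in *Nr2f1* mutants, so every library followed its label. *Sox2* was also lower in *Nr2f1* mutants (log2 change -0.55, edgeR FDR 0.00635). *Nr2f1* had 308, 345 and 344 CPM in *Sox2* controls and 227, 313 and 221 CPM in *Sox2* mutants. These groups overlapped, and the gene was not called (log2 change -0.39, edgeR FDR 0.0559). Total counts ran from 39293465 to 50095344 per library. Control libraries also differed from one another for the genes described here. In the *Nr2f1* line CTRL_D was the lowest of the 3 controls for 6 of the 7 genes. The third control of the *Sox2* line (CTRL_3) had the lowest level of the 3 controls for 7 of the 7 genes, and its summed CPM of 10 general neuronal genes was 7615 against 8634 and 8858 in the other controls, with astrocyte genes at 2290 against 1916 and 1970. Changes of the 7 genes in *Sox2* mutants are therefore also given without it where they moved. Removing the lowest control widens a fall in mutants by construction. Calls over all genes rose as well, to 2161 of 15811 genes tested without CTRL_3, from 1261 of 15602 with it.

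*Gabra4* had 10.8, 11.03 and 8.89 CPM in the *Sox2* control libraries and 17.9, 17.8 and 17.5 CPM in the mutant libraries, on 360 to 792 reads per library. All 3 mutants lay above all controls and close to one another. The log2 change was 0.79 ± 0.11 (SE; 95% interval 0.55 to 1.03), with an edgeR FDR of 0.00121. It was the single member called in *Sox2* mutants, 1 of 7, beside 8.08% of the 15602 genes tested in this line, 3.9% of them called higher. *Gabra4* was called in each of the 14 alternative fits of this line, including those leaving out each library in turn, with log2 changes of 0.71 to 0.86. In bulk tissue, a change in the number of cells that express a gene and a change in RNA per cell cannot be told apart.

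In the *Nr2f1* line, *Gabra4* had 11.8, 10.04 and 11.4 CPM in controls and 11.8, 12.2 and 10.4 CPM in mutants. The groups overlapped, and the log2 change was 0.05 (95% interval -0.18 to 0.29, edgeR FDR 0.805). The change in *Sox2* mutants exceeded that in *Nr2f1* mutants by 0.75 ± 0.14 on the log2 scale (SE; 95% interval 0.44 to 1.06), which narrowly missed the threshold in the test of the difference itself (edgeR FDR 0.0109 for the interaction of line and genotype). None of the 7 genes was called for this difference, where 1.44% of 15989 genes were called, and 3 of the 7 had an unadjusted p below 0.05. With DESeq2 the difference in *Gabra4* was called (adjusted p 1.26e-04).

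*Slc12a5* had 429.5, 431.1 and 351.4 CPM in *Sox2* controls and 307.6, 306.1 and 314.0 CPM in *Sox2* mutants. All mutants lay below all controls, and CTRL_3 was the control nearest to them. The log2 change was -0.39 ± 0.09 (SE; 95% interval -0.58 to -0.19), with an edgeR FDR of 0.0137. Without CTRL_3 the change was -0.47 and the gene was called (edgeR FDR 4.05e-04), 1 of 2161 called there among 15811 tested. DESeq2 also called it, with a log2 change of -0.39 and an adjusted p of 2.35e-04. It was not called without any one of the other 5 libraries (edgeR FDR 0.0383 to 0.0657) or with male-specific genes as a covariate (edgeR FDR 0.0208).

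In the *Nr2f1* line, *Slc12a5* had 419.1, 408.2 and 412.8 CPM in controls and 397.9, 430.5 and 385.5 CPM in mutants. The mutants lay on both sides of the controls, and the log2 change of -0.03 had a 95% interval of -0.15 to 0.09 (edgeR FDR 0.771). The difference between the lines was -0.35 ± 0.10 (SE) on the log2 scale, with an edgeR FDR of 0.0793. Without CTRL_3 it was -0.43 and was called (edgeR FDR 0.00343). That fit called 308 of 16167 genes tested, beside 231 of 15989 with all libraries.

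*Gabra3*, the alpha subunit with the highest control level, had 71.5, 75.9 and 55.7 CPM in *Sox2* controls and 61.0, 57.5 and 55.0 CPM in *Sox2* mutants. The mutants lay below CTRL_1 and CTRL_2 and around CTRL_3, so the groups overlapped. The log2 change was -0.23 ± 0.11 (SE; edgeR FDR 0.168), and without CTRL_3 it was -0.34 and was called (edgeR FDR 0.00799). Without any one of the others it was not called, and the smallest change was -0.14. In *Nr2f1* controls it had 79.1, 75.3 and 81.2 CPM and in *Nr2f1* mutants 77.2, 82.0 and 75.1 CPM, with a log2 change of -0.01 (95% interval -0.13 to 0.12).

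*Gabra5*, an alpha subunit found mostly outside synapses in the mature forebrain, had 36.7, 34.9 and 32.6 CPM in *Nr2f1* controls and 40.2, 44.8 and 40.6 CPM in *Nr2f1* mutants. All 3 mutants lay above all controls. The log2 change was 0.27 ± 0.07 (SE; 95% interval 0.11 to 0.43), with an edgeR FDR of 0.0524. It was the 1 gene of the 7 without overlap in this line, beside 28.6% of all genes tested, and the 1 gene with an unadjusted p below 0.05. In the count of calls, 0 of 7 passed beside 2.54% of all 15600 genes tested in *Nr2f1* mutants, and DESeq2 also called 0.

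In the *Sox2* line, *Gabra5* had 35.9, 33.3 and 24.9 CPM in controls and 32.8, 26.1 and 26.9 CPM in mutants. The groups overlapped, with a log2 change of -0.13 (95% interval -0.45 to 0.18, edgeR FDR 0.531). This change depended on single libraries, being -0.27 without CTRL_3 (edgeR FDR 0.0968), -0.24 without MUT_1 and -0.03 without CTRL_1. The difference between the lines was -0.40 ± 0.17 (SE; edgeR FDR 0.254) and -0.53 without CTRL_3 (edgeR FDR 0.0354), and neither passed the threshold.

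*Gabrb1*, the least abundant of the 7, had 7.03, 8.31 and 6.81 CPM in *Sox2* controls and 9.55, 9.73 and 9.43 CPM in *Sox2* mutants. All mutants lay above all controls, with a log2 change of 0.37 ± 0.12 (SE; edgeR FDR 0.0523). Of the 7 genes, 3 did not overlap between the groups of the *Sox2* line, *Gabra4*, *Gabrb1* and *Slc12a5*, beside 37.9% of all genes tested. The same 3 had unadjusted p-values below 0.05. In the *Nr2f1* line *Gabrb1* had 9.25, 7.33 and 8.13 CPM in controls and 9.46, 10.9 and 8.15 CPM in mutants, which overlapped (log2 change 0.21, edgeR FDR 0.388).

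The remaining pair, *Gabra2* and *Gabrb2*, differed in neither line by more than the spread between libraries. *Gabra2* had 78.2, 63.7 and 53.4 CPM in *Sox2* controls, 75.7, 63.2 and 63.7 CPM in *Sox2* mutants, 55.5, 52.2 and 56.3 CPM in *Nr2f1* controls and 46.8, 58.4 and 57.1 CPM in *Nr2f1* mutants. Its log2 change had a 95% interval of -0.24 to 0.34 in *Sox2* mutants and of -0.20 to 0.18 in *Nr2f1* mutants. *Gabrb2*, a beta subunit, had 72.7, 72.8 and 51.1 CPM in *Sox2* controls, 73.5, 65.7 and 63.1 CPM in *Sox2* mutants, 79.7, 70.1 and 77.7 CPM in *Nr2f1* controls and 79.8, 79.3 and 74.0 CPM in *Nr2f1* mutants. Its intervals were -0.25 to 0.33 and -0.10 to 0.18. Without CTRL_3 the log2 changes in *Sox2* mutants were -0.06 for *Gabra2* and -0.10 for *Gabrb2*, against 0.05 and 0.04 with it, and neither gene was called. The median log2 change of the 7 genes was 0.04 in both lines, beside medians over all genes tested of 0.00050 for *Sox2* mutants and 0.014 for *Nr2f1* mutants. With 3 libraries against 3, an exact permutation test of one gene cannot give a two-sided p below 0.1, the value reached by *Gabra4*, *Gabrb1* and *Slc12a5* in *Sox2* mutants and by *Gabra5* in *Nr2f1* mutants.

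**Figure D2:**
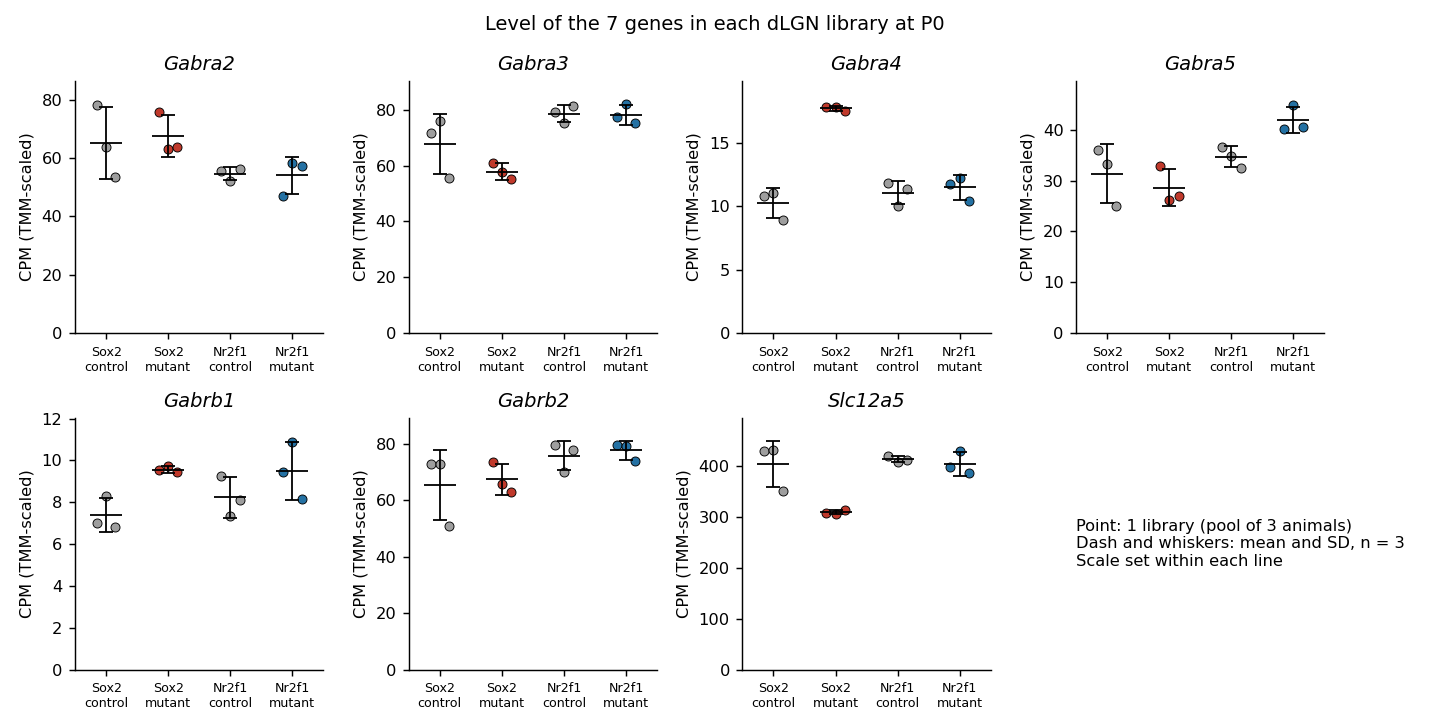
Level of each of the 7 genes in CPM in the 12 libraries, with 1 panel per gene, 1 point per library and the mean ± SD of each group of 3 as dash and whiskers; each y axis starts at 0. The *Sox2* mutants sit at 17.5 to 17.9 CPM for *Gabra4*, above all controls, and at 306.1 to 314.0 CPM for *Slc12a5*, below all controls, while *Gabra5* is higher in each *Nr2f1* mutant than in any *Nr2f1* control.

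The balance among *Gabra2*, *Gabra3*, *Gabra4* and *Gabra5* was described by each gene's share of their summed level per length in each library. In the *Sox2* line the share of *Gabra4* was 5.72 ± 0.334% (SD, n = 3) in controls and 10.2 ± 0.716% in mutants. The share of *Gabra3* was 42.2 ± 2.23% in controls and 37.3 ± 1.33% in mutants, that of *Gabra5* 26.7 ± 0.720% and 25.2 ± 1.28%, and that of *Gabra2* 25.3 ± 2.01% and 27.2 ± 0.718%. The groups did not overlap for *Gabra3* and *Gabra4* (exact permutation p 0.1 each, the smallest possible), and they overlapped for *Gabra5* (exact permutation p 0.2) and *Gabra2* (exact permutation p 0.3). The ratio of *Gabra4* to *Gabra3* per length was 0.135 ± 0.00641 in controls and 0.274 ± 0.0117 in mutants.

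The share of *Gabra4* in the *Nr2f1* line stayed within the spread, at 5.80 ± 0.321% in controls and 5.70 ± 0.416% in mutants (exact permutation p 0.8). The share of *Gabra5* was 27.97 ± 1.63% in controls and 31.9 ± 0.259% in mutants, and that of *Gabra3* 46.1 ± 1.13% and 43.5 ± 1.18%, without overlap for either (exact permutation p 0.1 each). *Gabra2* held 20.1 ± 0.421% in controls and 18.8 ± 1.67% in mutants, and its groups overlapped (exact permutation p 0.3). Shares depend on one another, since the 4 sum to a fixed total.

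**Figure D3:**
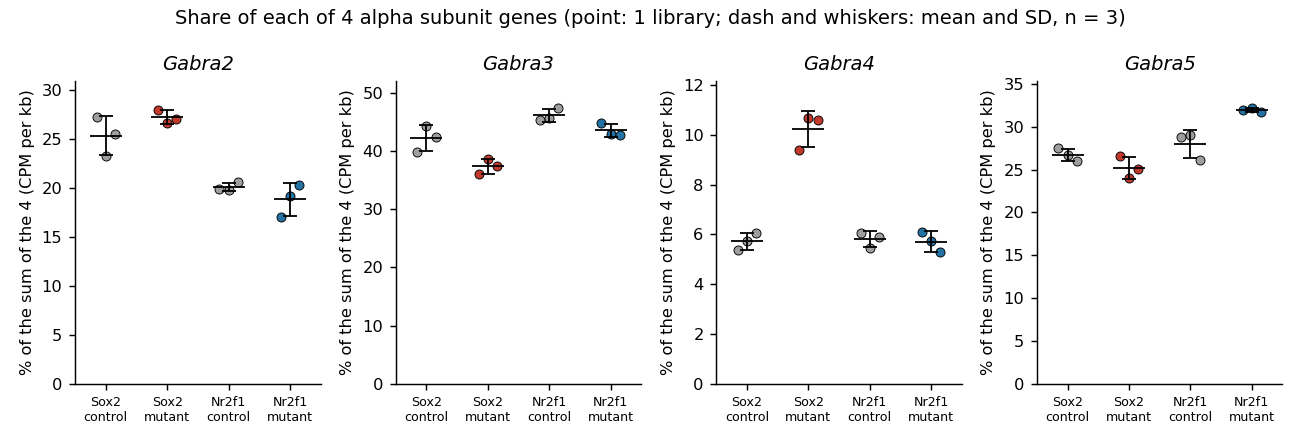
Share of each of 4 alpha subunit genes in their summed CPM per kb, in percent, with 1 point per library and the mean ± SD of each group of 3. The mean share of *Gabra4* is 5.72% in *Sox2* controls and 10.2% in *Sox2* mutants, without overlap, and 5.80% and 5.70% in the *Nr2f1* line.

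For the chloride transporters, the ratio of *Slc12a5* to *Slc12a2* per length was 10.2, 10.1 and 9.30 in *Sox2* controls and 7.35, 6.46 and 7.72 in *Sox2* mutants. Every mutant was below every control, and the mean went from 9.87 ± 0.493 to 7.18 ± 0.652 (exact permutation p 0.1). For *Nr2f1* libraries the ratio was 10.2 ± 0.402 in controls and 10.4 ± 1.08 in mutants (exact permutation p 0.9). *Slc12a2* itself had a log2 change of 0.08 (95% interval -0.11 to 0.27) in *Sox2* mutants and of -0.04 (95% interval -0.20 to 0.11) in *Nr2f1* mutants.

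The rest of the GABA-A family was read from the same fits. Of the other 13 subunits, 8 were tested. In *Sox2* mutants edgeR called 1 of them, beside 8.08% of all genes tested, and 4 had an unadjusted p below 0.05. DESeq2 called 2, beside 2447 of the 14894 genes it tested. In *Nr2f1* mutants neither tool called any, beside 2.54% of all genes with edgeR and 1120 of 14449 with DESeq2. There, 3 had an unadjusted p below 0.05. The gene called was *Gabrg1*, a gamma subunit from the same chromosome 5 cluster as *Gabra4*. *Gabrg1* had 19.0, 18.1 and 16.1 CPM in *Sox2* controls and 30.001, 24.9 and 30.7 CPM in *Sox2* mutants, without overlap. The log2 change was 0.69 ± 0.11 (SE; edgeR FDR 0.00245), and it missed the threshold when control CTRL_2 or mutant MUT_4 was left out, with an FDR of at most 0.0165. In *Nr2f1* mutants *Gabrg1* had a log2 change of 0.32 (edgeR FDR 0.0369), and the difference between the lines did not pass (edgeR FDR 0.141).

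*Gabrg3*, another gamma subunit, had log2 changes of -0.41 in *Sox2* mutants and -0.33 in *Nr2f1* mutants, and *Gabrq* had 0.02 and 0.03. Neither was called in either line.

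**Figure D4:**
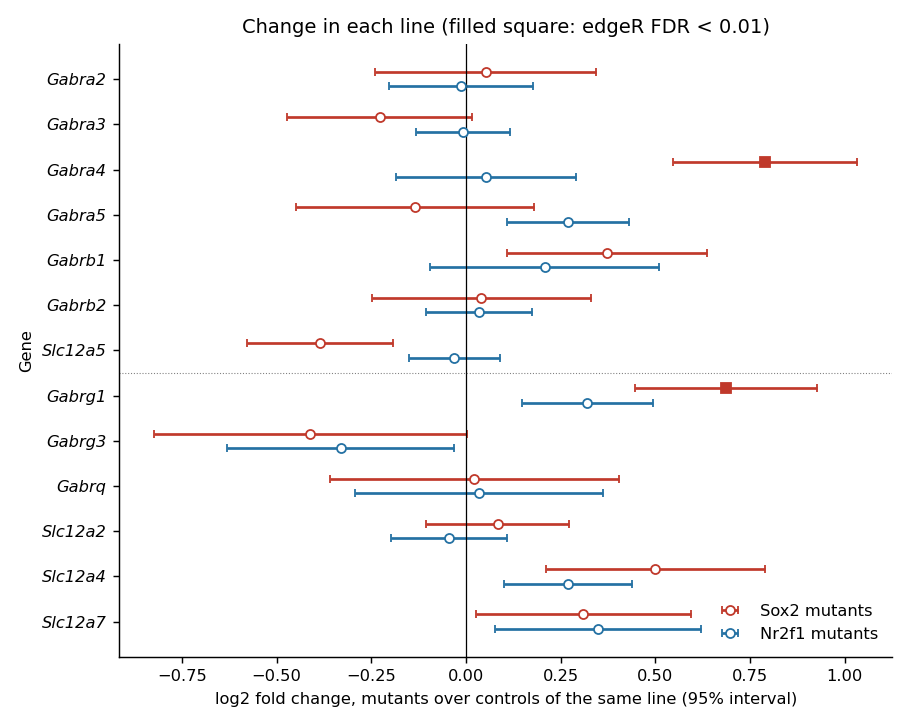
Log2 fold change of mutants over controls of the same line with its 95% interval, for the 7 genes (above the dotted line) and for some other subunits and Slc12 transporters (below), in *Sox2* mutants (red) and *Nr2f1* mutants (blue); a filled square marks an edgeR FDR below 0.01. *Gabra4* (0.79) and *Gabrg1* (0.69) in *Sox2* mutants are the filled squares, and the interval of *Slc12a5* lies below 0 in *Sox2* mutants and includes 0 in *Nr2f1* mutants.

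Of 12 genes of chloride transport besides *Slc12a5*, all were tested. None was called in either line by edgeR, beside 8.08% and 2.54% of all genes tested. An unadjusted p below 0.05 was found for 5 in *Sox2* mutants and 6 in *Nr2f1* mutants. DESeq2 called 1 in each, *Slc12a4* and *Wnk2*, beside 2447 of 14894 and 1120 of 14449 genes tested. The transporter *Slc12a4* had a log2 change of 0.50 (edgeR FDR 0.0247) in *Sox2* mutants and 0.27 (edgeR FDR 0.0622) in *Nr2f1* mutants, and *Slc12a7* of 0.31 and 0.35. Among the WNK kinases, which regulate these transporters by phosphorylation, *Wnk1* had log2 changes of 0.23 (edgeR FDR 0.0397) and 0.13, and *Wnk2* of -0.24 (edgeR FDR 0.0553) and -0.23 (edgeR FDR 0.0405).

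Across all 6 lists of GABA and glycine signalling, 52 of 59 genes were tested, and 5 were called in *Sox2* mutants (3 higher, 2 lower) and 3 in *Nr2f1* mutants (2 higher, 1 lower). These are 9.62% and 5.77% of the genes tested in the lists, beside 8.08% and 2.54% of all genes tested. Among 15 genes that anchor or traffic GABA-A receptors, *Iqsec3*, a guanine nucleotide exchange factor that binds gephyrin at inhibitory synapses, fell in *Sox2* mutants from 166, 171 and 160 CPM to 99.0, 92.9 and 89.6 CPM (log2 change -0.82, edgeR FDR 7.02e-05). *Plcl1*, which binds the receptor and its carrier GABARAP, rose in *Nr2f1* mutants (log2 change 0.83, edgeR FDR 0.00162). Of 8 genes for the synthesis, uptake and breakdown of GABA, *Slc6a11*, the glial transporter GAT3, rose in *Sox2* mutants (log2 change 0.43, edgeR FDR 0.00748). In *Nr2f1* mutants the log2 change of *Slc6a11* was 0.25, called by DESeq2 but not by edgeR. Its difference between the lines did not pass (edgeR FDR 0.411). Of 6 genes of GABA-B receptors, the auxiliary subunit *Kctd12* fell in *Sox2* mutants (log2 change -0.65, edgeR FDR 0.00272), and in *Nr2f1* mutants the receptor subunit *Gabbr1* fell (log2 change -0.38, edgeR FDR 0.00500) while the auxiliary subunit *Kctd16* rose (log2 change 1.25, edgeR FDR 0.00481). *Gabbr1* was also lower in *Sox2* mutants, without overlap (log2 change -0.32, edgeR FDR 0.0164, not called). DESeq2 called *Gabbr1* in both lines, and its difference between the lines did not pass (edgeR FDR 0.808). Of 5 glycine receptor genes, 3 were tested and *Glra3* rose in *Sox2* mutants, from at most 0.497 CPM in controls to at least 1.27 CPM (log2 change 2.01, edgeR FDR 0.00895). Leaving out 1 library at a time, *Iqsec3* was called each time. The call of *Slc6a11* was lost without CTRL_1, CTRL_2, MUT_3 or MUT_4 (edgeR FDR up to 0.0421), that of *Kctd12* without CTRL_2, MUT_3 or MUT_4 (up to 0.0147), and that of *Glra3* without any library but CTRL_3 (up to 0.0353). In the *Nr2f1* line the call of *Plcl1* was lost without CTRL_E or MUT_A (up to 0.0127), that of *Gabbr1* without any library but MUT_B (up to 0.0320), and that of *Kctd16* without CTRL_B, CTRL_D, CTRL_E or MUT_A (up to 0.0297).

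Marker genes of other cells moved in the same libraries. In *Sox2* mutants 7 of 10 astrocyte markers and 7 of 8 microglial markers were called, all higher, beside 8.08% of all genes tested. The summed CPM ran from 1916 to 2290 in controls and from 2930 to 3384 in mutants for astrocytes, and from 99 to 113 and from 215 to 248 for microglia. Of 10 general neuronal genes 2 were called, both lower, with sums of 7615 to 8858 in controls and 7531 to 7991 in mutants. Of 10 markers of thalamic glutamatergic neurons 4 were lower and 1 higher, with sums of 1922 to 2430 and 1895 to 1941. The part of these cell types in the changes of *Gabra4* and *Slc12a5* was not tested.

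Of 11 markers of GABAergic neurons none was called by edgeR, but all 11 had an unadjusted p below 0.05. DESeq2 called 6 of them, beside 2447 of 14894 genes tested. Their sum ran from 82.3 to 130 CPM in *Sox2* controls and from 154 to 224 CPM in mutants. Of 6 pallial and hippocampal markers 1 was called, *Slc17a7*, and the sum was 46.5, 32.6 and 21.5 CPM in controls and 130, 38.6 and 73.9 CPM in mutants. The part of these cells in the changes was not tested either. *Otx2*, listed for both midbrain-derived interneurons and the choroid plexus, was called higher, and 1 of 9 genes of the oligodendrocyte lineage was higher and 1 lower. None of the 6 endothelial and 6 pericyte markers was called by edgeR in *Sox2* mutants, with an unadjusted p below 0.05 for 5 of each and DESeq2 calls for 0 and 1. No sex-specific gene was called by either tool or had an unadjusted p below 0.05, but the summed CPM of 4 male-specific genes ran from 33.6 to 114 in *Sox2* controls and from 54.3 to 110.2 in *Sox2* mutants, so these pools differed in sex within both groups.

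In *Nr2f1* mutants edgeR called 1 of 10 astrocyte markers (*Aqp4*, higher) and 3 of 10 thalamic markers (2 higher, 1 lower). It also called 2 of 9 oligodendrocyte lineage markers (1 higher, 1 lower), beside 2.54% of all genes tested. The other lists had no gene called by edgeR. Of these, microglial and endothelial markers had 3 genes each called by DESeq2, general neuronal genes 2, and interneuron, pericyte and choroid plexus markers 1 each. Over all genes, DESeq2 called 1120 of 14449 in this line. The sum of GABAergic markers was 113 to 120 CPM in controls and 108 to 220 CPM in mutants, and that of microglial markers 77 to 89 and 99 to 129. Astrocyte markers summed to 1650 to 1708 CPM in controls and 1841 to 2023 CPM in mutants, without overlap. General neuronal genes summed to 8720 to 8952 CPM in controls and 7782 to 8535 CPM in mutants, also without overlap. The sums of thalamic markers overlapped, at 2328 to 2529 and 2215 to 2526 CPM. The male-specific sum was 44 to 97 CPM in *Nr2f1* controls and 0 to 52 CPM in *Nr2f1* mutants, so the pools of this line differed in sex as well. With these genes as a covariate, *Gabra5* remained higher in *Nr2f1* mutants but again was not called.

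**Figure D5:**
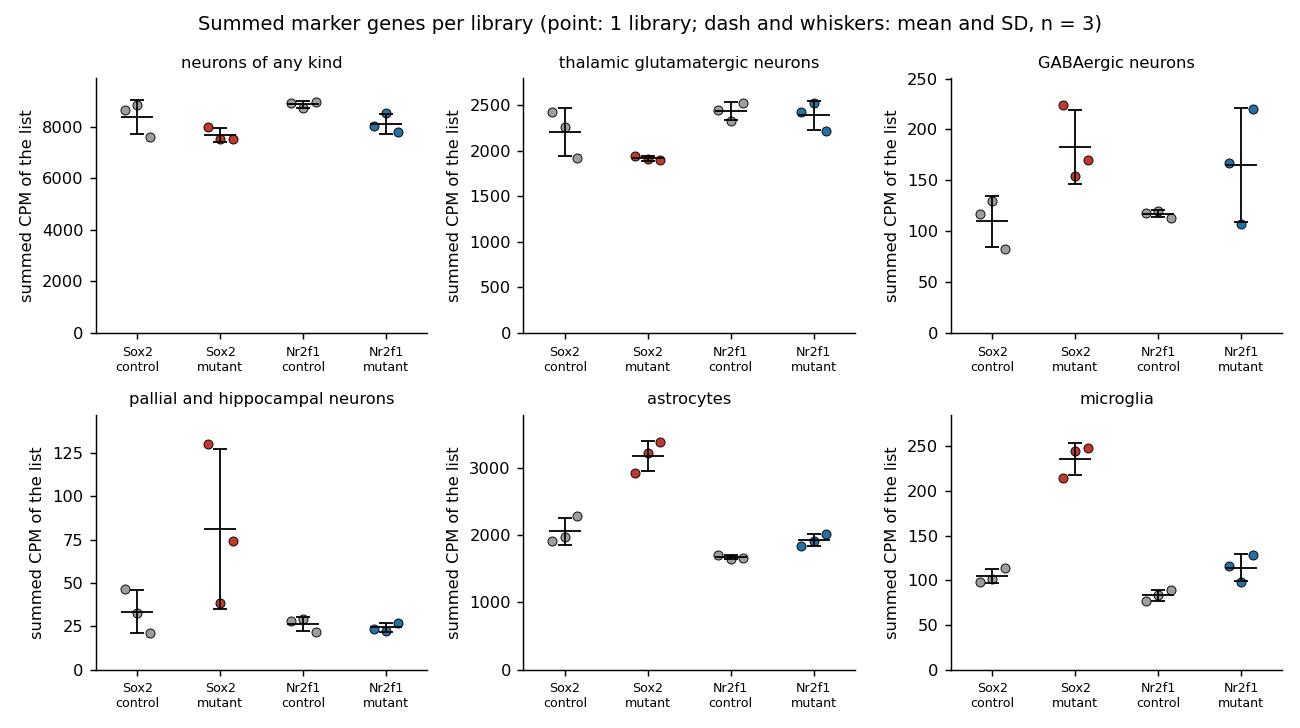
Summed CPM of 6 marker lists in the 12 libraries, with 1 point per library and the mean ± SD of each group of 3; each y axis starts at 0. In both lines the astrocyte and microglial sums of the mutants lie above all controls of the same line. The general neuronal sums of the *Nr2f1* mutants lie below all *Nr2f1* controls, and the pallial sums of the *Sox2* mutants spread from 38.6 to 130 CPM.

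The genes most like each of the 7 were ranked by Pearson correlation of log2 CPM, scaled over the 12 libraries together, among 15396 genes tested in both lines. The libraries fall into groups that share line and genotype, so these values describe the likeness and were not tested. *Gabra4* was most like *Dclk3* (r 0.976) and *Pcsk2* (0.968), and *Slc12a5* was most like *Galntl6* (0.977), *B3gat2* (0.976) and *Dner* (0.976). *Gabra3* was most like *Ptpro* (0.984), *Adar* (0.979) and *Clstn3* (0.977), *Gabra5* like *Scube3* (0.959), *Srgap3* (0.950) and *Zfp704* (0.945), and *Gabrb2* like *Rragb* (0.971), *Zyg11b* (0.946) and *Gpm6a* (0.942). The values were lower for *Gabrb1*, with *Fahd1* (0.927), *Rnf138rt1* (0.890) and *Tceal3* (0.866), and for *Gabra2*, with *Htr1a* (0.870), *Gmcl1* (0.867) and *Rab3d* (0.843). Among the 7 themselves, *Gabra3* and *Slc12a5* had an r of 0.894, *Gabra3* and *Gabra5* of 0.855, and *Gabra4* and *Slc12a5* of -0.73. After subtracting each group's mean, *Gabra4* and *Slc12a5* instead had an r of 0.839 over the 12 libraries together. The libraries had the same order for both genes in 3 of the 4 groups, but among *Sox2* mutants MUT_4 had the lowest *Gabra4* and the highest *Slc12a5*. After the same subtraction, other pairs of the 7 ran from 0.086 (*Gabra2* and *Gabrb1*) to 0.952 (*Gabra3* and *Gabrb2*). A high value was therefore not particular to *Gabra4* and *Slc12a5*.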

How the data were processed

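Libraries were made from dLGNs at P0, in pools of 3 animals. According to the study's methods, the authors aligned paired reads with STAR to the RefSeq mouse transcriptome and estimated expression with RSEM; the submitters' processing notes name mm10. The authors deposited 1 table a line of expected counts, unnormalized; 7.77% of entries had decimals and were rounded to whole numbers. No column belonged to other samples (0). Libraries were assigned to groups by column names.

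Mutants were compared with controls of their own line with edgeR 4.0.16 (R 4.3.3), by glmQLFTest following TMM scaling. Low counts were removed by filterByExpr at its defaults (10 for a count, 15 for a total), with Benjamini-Hochberg adjustment over all genes tested (FDR) and the study's threshold of 0.01. The paper reports more genes at this threshold in each line than were called here, so these calls are not the study's own. The difference between the lines was tested as the interaction in 1 fit over 12 libraries. Intervals (95%) came from the SE and the degrees of freedom of the fit. Exact permutation tests were two-sided. The share of all genes with an unadjusted p below 0.05 was not counted, so counts of such genes in the lists stand without a background. The alternatives included DESeq2 1.42.0, other filters and scalings, a covariate of male-specific genes and leaving out each library. The fits were tested on simulated counts with known changes.

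Total counts per library (39293465 to 50095344) left at least 276 reads for each member, so that the number of pools limits the precision. No sources used here say that pools shared no litter, and p-values measure the spread between these pools. Pairs of replicates differed by more than sampling noise (chi-square per degree of freedom 10.4 to 37.9 over 12 pairs).

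The members and the 6 pathway and 13 marker lists were chosen with earlier results of these data known. Named genes were the members, other subunits and chloride transport genes that were called or had at least 1 CPM in controls, called genes of the other pathway lists, and the 3 genes most like each member. Of these, abundant uncalled chloride transport genes are given in part. A few genes covered by this rule are not reported here. Shares and ratios were added after seeing the data. Transcript lengths came from GENCODE M21 and promoter sequences and positions from RefSeq.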

Additional observations from a re-analysis of the deposited data

Results flagged for a closer look

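Among the genes of GABA signalling, the change of *Iqsec3* differed between the lines. Its log2 change was -0.82 in *Sox2* mutants and -0.08 in *Nr2f1* mutants, a difference of -0.73 (edgeR FDR 1.00e-04 for the interaction), which was called in each of 18 alternative fits. *Kctd16* moved in opposite directions, with a log2 change of -0.81 in *Sox2* mutants (edgeR FDR 0.0412, not called) and 1.25 in *Nr2f1* mutants, a difference of -2.05 (edgeR FDR 9.44e-04), also called in each of 18 alternative fits. It had at most 2.26 CPM in the controls of both lines.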

How the results depend on the processing

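*Gabra4* was called in *Sox2* mutants in every alternative, so that the number of members called there was at least 1. It was 2, with *Slc12a5* added, with no filter on low counts, with DESeq2, at an FDR of 0.05 and in one fit over all 12 libraries. Leaving out each library gave 1 to 3, with 3 (*Gabra3*, *Gabra4* and *Slc12a5*) without CTRL_3. In *Nr2f1* mutants it was 0 in every alternative. For the difference between the mutants it was 1 (*Gabra4*) when at least 10 counts were required in every library, with upper quartile normalization, with DESeq2 and at an FDR of 0.05, and 0 to 1 when each library was left out, with 1 (*Slc12a5*) without CTRL_3. Pathway genes called numbered 13 with DESeq2 and 15 at an FDR of 0.05 in *Sox2* mutants, 5 and 7 in *Nr2f1* mutants, and 4 and 4 for the difference. Calls over all genes rose under these settings as well, to 2447 of 14894 and 3095 of 15602 genes tested in *Sox2* mutants. They were 1120 of 14449 and 1154 of 15600 in *Nr2f1* mutants, and 543 of 15271 and 538 of 15989 for the difference. The cause of these changes in the number called was not tested.

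Signs turned only for changes near 0 that were called in no fit. With the covariate of male-specific genes the log2 change was -0.028 for *Gabrb2* in *Sox2* mutants, 0.10 for *Gabra2* and 0.00035 for *Gabra3* in *Nr2f1* mutants, and -0.063 for *Gabra2* in the difference, and with upper quartile normalization it was 0.0049 for *Gabra3* in *Nr2f1* mutants. Leaving out each library gave -0.061 to 0.20 for *Gabra2*, -0.099 to 0.12 for *Gabrb2* in *Sox2* mutants, -0.072 to 0.0803 for *Gabra2*, -0.045 to 0.017 for *Gabra3*, -0.015 to 0.12 for *Gabra4*, -0.019 to 0.071 for *Gabrb2*, -0.078 to 0.00045 for *Slc12a5* in *Nr2f1* mutants, and -0.045 to 0.22 for *Gabra2*, -0.13 to 0.10 for *Gabrb2* in the difference between the mutants.

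Over all genes, 1261 were called in *Sox2* mutants, 2447 with DESeq2 and 2075 in one fit over all 12 libraries. Leaving out each library gave 494 to 2161, with 2161 without CTRL_3 and at most 906 without any other. In *Nr2f1* mutants the numbers were 396, 1120 with DESeq2, 84 with the male-specific covariate and 133 to 868 leaving out each library, and for the difference 231, 543, 117 and 133 to 308. Column numbers were shared by only 2 pairs of the *Sox2* line (r 0.177 and 0.157 between deviations from the group means), which does not establish a pairing. With this number as a replicate block 1 member was called, *Gabra4*, and 1611 genes in all, and the edgeR FDR of *Slc12a5* was 0.0748. No paired analysis was possible in the *Nr2f1* line because its groups share fewer than 2 numbers.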
